A study of Mus musculus with 39 samples.

Results

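The genes described here encode 33 lysosomal proteins, namely the acid hydrolases, their activators and the 2 LAMP membrane proteins, and were taken by gene symbol from a list. All 33 were found among the 55416 genes of the liver count table, and all 33 were among the 15296 genes with enough reads to test. The list holds 10 proteases, 9 enzymes and activators of glycolipid and sphingolipid breakdown, 6 glycosaminoglycan enzymes, 4 oligosaccharide and glycogen enzymes, 2 other enzymes and 2 membrane proteins. The data are RNA sequencing of whole snap-frozen liver from 39 male mice of the C57BL/6NTac (CD163tm1(KOMP)Vlcg) line. CD163 is the scavenger receptor by which macrophages take up haptoglobin-haemoglobin complexes, and the study asked how its loss bears on the liver under a Western diet. Knockout mice and wildtype littermates came from heterozygous parents, so that every group shares the same background. From 6 weeks of age they received for 8 weeks Altromin #1320 chow and plain water, or else Western diet and water supplemented with fructose. The groups were 5 wildtype and 4 knockout mice on chow and 15 wildtype and 15 knockout mice on the Western diet, called liver A, B and so on within a group by the replicate letters. The diet and the fructose water were given together and cannot be told apart.

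Lysosomes are acidic compartments in which hydrolases break down proteins, glycans and lipids that arrive by endocytosis, phagocytosis or autophagy. Most soluble hydrolases receive a mannose 6-phosphate tag in the Golgi and are carried to the lysosome by mannose 6-phosphate receptors, while LAMP proteins line the lysosomal membrane. Hepatocytes and Kupffer cells, the macrophages of the liver, both hold many lysosomes, and the transcription factor TFEB is known to drive many lysosomal genes through E-box motifs in their promoters.

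Library totals ran from 8578865 to 30438808 counts with a median of 14573193, and the 33 genes together took between 0.341% and 0.586% of a library as CPM, the counts scaled to a common library total after TMM normalisation. Cd163 itself checked the genotype labels: its level was 8.31 ± 4.27 CPM in wildtype and 0.355 ± 0.209 CPM in knockout livers on the Western diet (SD, n = 15 each), and on chow 8.74 ± 3.89 CPM (SD, n = 5) against 0.601 ± 0.138 CPM (SD, n = 4). Its log2 difference was -4.50 on the Western diet (SE 0.30, adjusted p = 1.04e-13, edgeR quasi-likelihood test with Benjamini-Hochberg adjustment over all tested genes, as for every adjusted p of a difference below). The diet labels were less clear. Diet scores were taken over 521 genes that differed at least 2-fold between the diets in 35 livers, with the mean of the 7 chow livers among these at 0 and that of the 28 Western diet livers at 1, which in part sets how closely those livers group. On this scale wildtype chow liver A stood at 0.913 and knockout chow liver D at 0.982. Wildtype Western diet liver A stood at 0.199 and knockout Western diet liver M at 0.129, while the other 7 chow livers lay between -0.0662 and 0.0821 and the other 28 Western diet livers between 0.836 and 1.24. These 4 livers kept their labels in the values below, and most counts, medians and leading genes are given with and without them. They were set apart by genes that respond to the diet, so the diet comparisons without them are not independent of that choice.

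Hepatocyte markers were high in every library, and no marker of the 12 for macrophages was at 0 in any. Acute phase genes, such as serum amyloid A, had a mean level of 8.83 log2 CPM in wildtype chow liver A and 9.07 in liver E, against 5.45 to 6.00 in the other 7 chow livers.

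Per kilobase of annotated exon, Lamp1, which encodes the main lysosomal membrane glycoprotein, had the highest mean level, at 234 CPM over all 39 livers. Psap, the precursor of the saposins that help enzymes reach sphingolipids, followed at 197, and Ctsz, encoding the carboxypeptidase cathepsin Z, at 179. The endopeptidases cathepsin B and cathepsin D each stood at 96.8 CPM per kilobase and cathepsin L at 85.1, ahead of Lamp2, the other membrane glycoprotein, at 55.4. The length covers all annotated exons of a gene, not those of 1 transcript, so the order is not one of transcript abundance. It was 6051 bases for Ctsb and 6489 for Ctsl, but 1441 for Ctsz. In CPM alone Lamp1 (627) was also first, followed by Ctsb (586), Ctsl (552) and Psap (540), with Ctsz at 258.

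Within the other roles the highest levels per length were lower. Fuca1, the fucosidase of glycoprotein breakdown, had 26.2 CPM per kilobase, Naglu, an enzyme of heparan sulfate breakdown, had 12.9, and Acp2, an acid phosphatase, had 10.4. The lowest per kilobase was Galc, the galactosylceramidase, at 0.509 over 14879 exonic bases. In CPM alone the lowest was Gla, at 4.68 against 7.57 for Galc. Ctss, encoding the macrophage-rich protease cathepsin S, varied most between livers, with a coefficient of variation of 46.1% over all 39, followed by Ctsc (cathepsin C) at 37.0%. Tpp1, encoding tripeptidyl peptidase, varied least, at 8.98%.

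**Figure D1:**
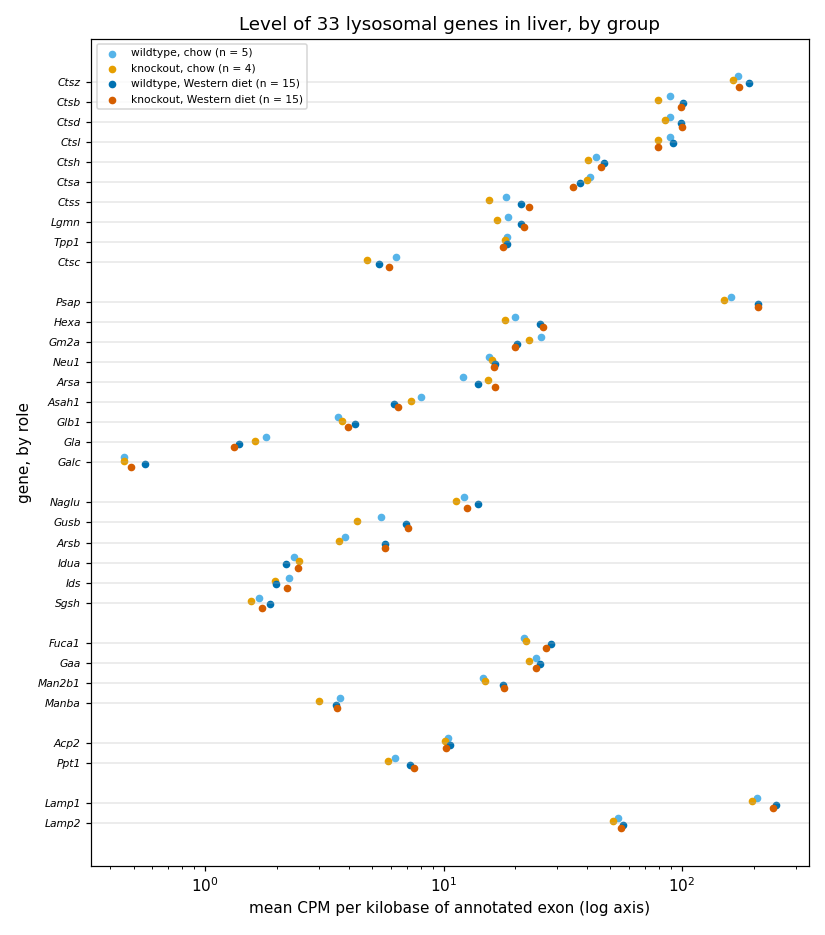
Mean level of each of the 33 lysosomal genes, in CPM per kilobase of annotated exon on a log axis, with 1 point per genotype and diet group and the genes ordered by role. Lamp1 at a mean of 234 and Galc at 0.509 over all livers mark the ends of the range, and the 4 groups of a gene lie close together compared with the distance between genes.

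Promoters of 30 of the 33 genes could be matched in RefSeq (GRCm38.p6), each as 300 bases from 250 before to 50 after the start. Asah1, Ctsb and Ctsh had no entry. A gene was counted if any of its windows held the letters. The core E-box letters CACGTG, which read the same on both strands, occurred in 11 of the 30 genes, or 36.7%. This compares with 8.09% of all 27025 genes and 8.91% of 17492 coding genes. The longer TCACGTGA, which contains that core, occurred in 3 of 30, or 10%, against 1.12% of all genes. The 10-letter CLEAR element in its palindromic form, which contains both, occurred in 0 of 30 against 0.37%. The stretches below are shown because they hold the core letters in a main membrane protein gene, in a pair of protease genes and in a glycolipid enzyme gene; capitals mark CACGTG, and each is written 5′ to 3′ on the strand of the gene.
Lamp1, chr8:13159080-13159160, plus strand: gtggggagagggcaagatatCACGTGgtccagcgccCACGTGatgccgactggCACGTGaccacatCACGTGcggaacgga
Gla, chrX:134601174-134601252, minus strand: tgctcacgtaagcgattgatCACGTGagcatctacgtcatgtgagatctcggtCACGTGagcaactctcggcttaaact
Ctsd, chr7:142387900-142387945, minus strand: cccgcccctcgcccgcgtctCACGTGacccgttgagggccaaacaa
Lgmn, chr12:102439116-102439161, minus strand: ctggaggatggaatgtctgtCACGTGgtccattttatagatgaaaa
The Lamp1 stretch held 4 matches between 61 and 15 bases before the start. Both matches of Gla, which encodes alpha-galactosidase, lay within TCACGTGA, 227 and 194 bases before the start. The Ctsd match shown, 98 bases before the start, also did. Ctsd held another match 245 bases before the start, outside TCACGTGA, which is not shown. Lgmn encodes legumain, an asparaginyl endopeptidase. A match is a description of these letters, and binding was not measured.

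In wildtype mice, 1 of the 33 genes passed the test between the diets. Fuca1 rose on the Western diet, and 25 of the 33 genes had a positive difference, with a median of 0.15 on the log2 scale against -0.00 over all tested genes. With the 4 livers left out 24 were positive and the median was 0.08, without wildtype chow liver A alone it was 0.07, and without wildtype chow liver E alone 0.25. The share of all tested genes called in either direction was 1.39%, with 0.771% higher and 0.615% lower, beside 3.03% of the members, which is this 1 gene. Of the 33 genes 11 had an unadjusted p under 0.05, 8 higher and 3 lower on the Western diet, against 17.2% of all tested genes. Macrophage markers had positive differences for 11 of 12 in the same comparison, with a median of 0.24 (0.27 with 1 called without the 4 livers), and their summed level ran from 239 to 468 CPM in wildtype chow livers and from 194 to 888 CPM in wildtype Western diet livers. Red blood cell genes were positive for 6 of 6, with a median of 1.33 (1.46 without the 4), and hepatocyte markers negative for 7 of 8, with a median of -0.17 (-0.30 with 2 called). The part of these cells in the lysosomal differences was not tested, and in whole liver, fewer cells of a type and less RNA per cell cannot be told apart.

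Fuca1 stood at 65.0, 72.4, 72.3, 69.1 and 76.0 CPM in wildtype chow livers A to E. On the Western diet it ranged from 73.4 to 106 CPM with a median of 92.4 in wildtype mice. The groups overlapped only at the low end of the Western diet range, where liver A, which stood with chow on the diet scale, was the lowest. The log2 difference was 0.38 (SE 0.09, adjusted p = 0.0317), and 0.37 (adjusted p = 0.00346) without the 4 livers. The call was lost, at adjusted p between 0.0538 and 0.110, when any of wildtype chow livers B, C, D or E was left out, and at 0.0743 with no filter on low counts.

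The next members by p did not pass in all 39 livers. Arsb, encoding the arylsulfatase B of dermatan sulfate breakdown, stood at 25.6, 23.7, 20.1, 21.6 and 25.7 CPM in wildtype chow livers A to E. On the Western diet it ranged from 22.02 to 46.5 CPM with a median of 34.2. Most Western diet livers lay above all 5 chow livers, and the difference was 0.56 (SE 0.17, adjusted p = 0.0814). Exons of other annotated genes share 39.9% of the exonic bases of Arsb, so its reads are partly uncertain.

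Asah1, the acid ceramidase, went the other way. It stood at 20.1, 28.9, 26.7, 26.7 and 34.4 CPM in wildtype chow livers A to E and ranged from 15.8 to 28.1 CPM on the Western diet, with a median of 20.6. The groups overlapped, with chow liver A among the Western diet values and Western diet liver A the highest of its group. The log2 difference was -0.38 (SE 0.12, adjusted p = 0.108). Gla was also lower, at 4.51 ± 0.626 CPM on the Western diet (SD, n = 15) against 5.88 ± 1.93 CPM on chow (SD, n = 5). It was not called here, but was called by limma voom, which called 1045 of all tested genes. Psap stood at 406.04, 443.9, 401.1, 417.9 and 526.6 CPM in wildtype chow livers A to E and from 411.6 to 738 CPM on the Western diet, where the groups overlapped, a difference of 0.38 (SE 0.13, adjusted p = 0.124), and of 0.39 (adjusted p = 0.0553) without the 4 livers.

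Without the 4 livers, 5 of the 33 genes passed in wildtype mice, or 15.2%, against 8.66% of all tested genes. Arsb (0.63, adjusted p = 0.00899), Fuca1 and Galc (0.40, adjusted p = 0.0352) were higher, at 9.09% of the members against 4.26% of all genes. Asah1 (-0.50, adjusted p = 0.0119) and Gm2a (-0.51, adjusted p = 0.0170), the activator that presents ganglioside GM2 to hexosaminidase, were lower, at 6.06% against 4.4%. Enzymes and activators of sphingolipid breakdown were thus found on both sides. In this set of livers no member had separate ranges between the diets in wildtype mice, against 2.52% of all tested genes, and none did in all livers, against 0.17%.

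**Figure D2:**
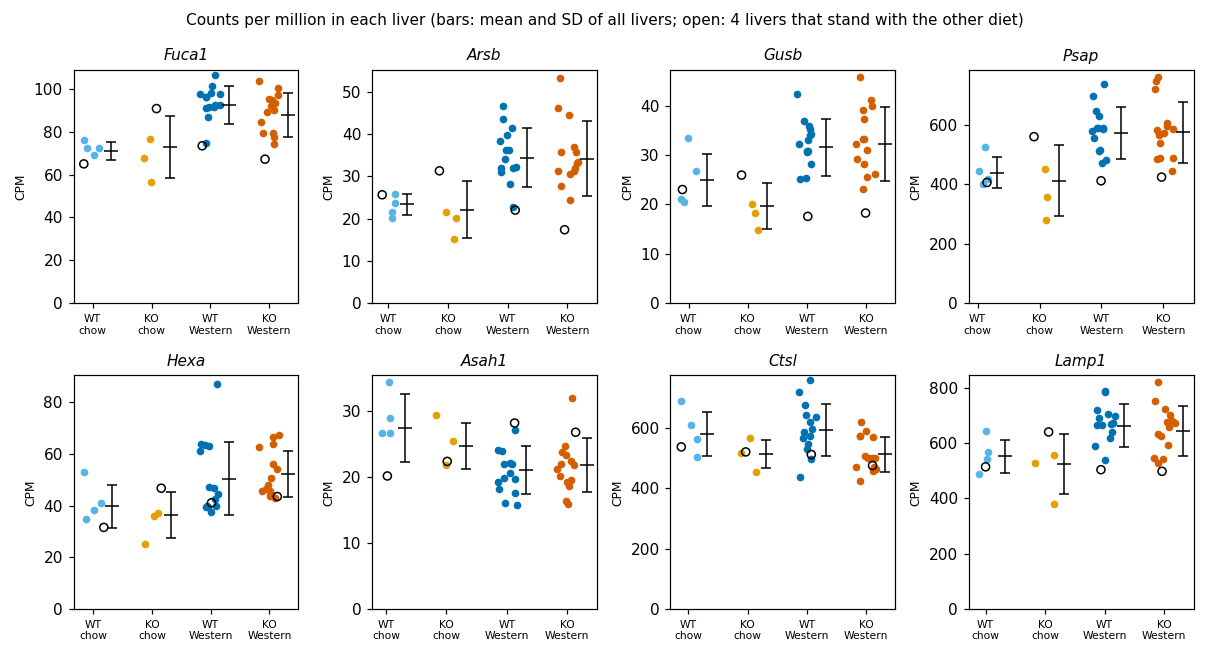
Level of 8 lysosomal genes in each of the 39 livers, in CPM on axes that start at 0, with the mean and SD of all livers of a group as bars and the 4 livers that stood with the other diet as open circles. For Gusb, Arsb and Fuca1 the open circles of the Western diet groups lie at or near the low end, and knockout chow liver D is the highest of its group. Wildtype chow liver A is the lowest of its group for Fuca1 (65.0) and in the middle for Gusb (23.0).

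In knockout mice none of the 33 genes passed the edgeR test between the diets in all 39 livers, where 0.00654% of all tested genes passed, while 10 of the 33 had an unadjusted p under 0.05, each higher on the Western diet, against 19.2% of all tested genes. With limma voom 5 of the members passed, where 5.36% of all tested genes did, and with DESeq2 3, where 1.77% did. The median log2 difference was 0.15, and 26 of the 33 were positive, against 0.24 and 27 without the 4 livers. Without the 4 livers, 10 of the 33 passed, or 30.3%, and each was higher, against 17.2% of all tested genes called, 9.69% higher and 7.5% lower. They were Gusb, Arsb and Ids of glycosaminoglycan breakdown, Psap and Hexa of glycolipid breakdown, Fuca1 and Man2b1 of glycoprotein breakdown, Ppt1, Ctsb and Lamp1. Leaving out knockout chow liver D alone gave 8, where 9.06% of all tested genes passed.

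Gusb, encoding beta-glucuronidase, had the smallest p. It stood at 18.2, 14.8, 20.1 and 25.95 CPM in knockout chow livers A to D and ranged from 18.3 to 45.8 CPM with a median of 32.2 on the Western diet. Liver D was the highest chow liver and Western diet liver M the lowest of its group, and without them the ranges of the diets did not overlap. The log2 difference was 0.70 (SE 0.18, adjusted p = 0.0966) in all livers and 0.94 (SE 0.17, adjusted p = 4.54e-04) without the 4.

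Arsb was similar in size. It stood at 21.6, 15.3, 20.1 and 31.3 CPM in knockout chow livers A to D and from 17.4 to 53.3 CPM on the Western diet, with a median of 33.03. Chow liver D was the highest of its group and Western diet liver M the lowest, and without them the ranges did not overlap. On the log2 scale the difference was 0.63 (SE 0.19, adjusted p = 0.121), and 0.92 (adjusted p = 8.93e-04) without the 4 livers.

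Psap stood at 451, 281, 357 and 560 CPM in knockout chow livers A to D and from 424.1 to 761 CPM on the Western diet, with a median of 572. Livers A and D lay within the Western diet range. Western diet exceeded chow by 0.48 on the log2 scale (SE 0.15, adjusted p = 0.122), and 0.71 (adjusted p = 0.00171) without the 4 livers. Hexa, the alpha subunit of beta-hexosaminidase, stood at 35.98, 25.0, 37.1 and 46.7 CPM on chow and from 42.8 to 67.2 CPM on the Western diet. Liver D alone of the chow livers lay within the Western diet range, and the difference was 0.52 (SE 0.18, adjusted p = 0.139), and 0.72 (adjusted p = 0.0146) without the 4 livers.

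The other 6 genes called without the 4 livers had smaller differences. Ppt1, the palmitoyl-protein thioesterase, differed by 0.54 (adjusted p = 0.00537), Ctsb by 0.45 (0.0221) and Lamp1 by 0.45 (0.0105). Fuca1 and Man2b1, the alpha-mannosidase, each differed by 0.44, at adjusted p = 0.00178 and 0.00444. Ids, the iduronate sulfatase, differed by 0.41 (adjusted p = 0.0442). Ranges did not overlap between the diets for 6 members in these livers, Hexa, Gusb, Arsb, Man2b1 and Ppt1 being higher and Ctsa, the protective protein cathepsin A, lower, against 5.92% of all tested genes, 2.8% higher and 3.12% lower. In all livers there were 0 such members, against 0.0262%. Macrophage markers had positive differences for 11 of 12 in knockout mice, with a median of 0.55, or 0.68 with 2 of the 12 called without the 4 livers. Red blood cell genes were positive for 6 of 6 (3.25 in all livers, 3.07 with 2 called without the 4). Sinusoidal endothelial markers were negative for 6 of 7 (-0.43, and -0.44 with 2 called), and hepatocyte markers for 7 of 8 (-0.20, and -0.30 with 1 called and 6 negative). The part of these cells was not tested.

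**Figure D3:**
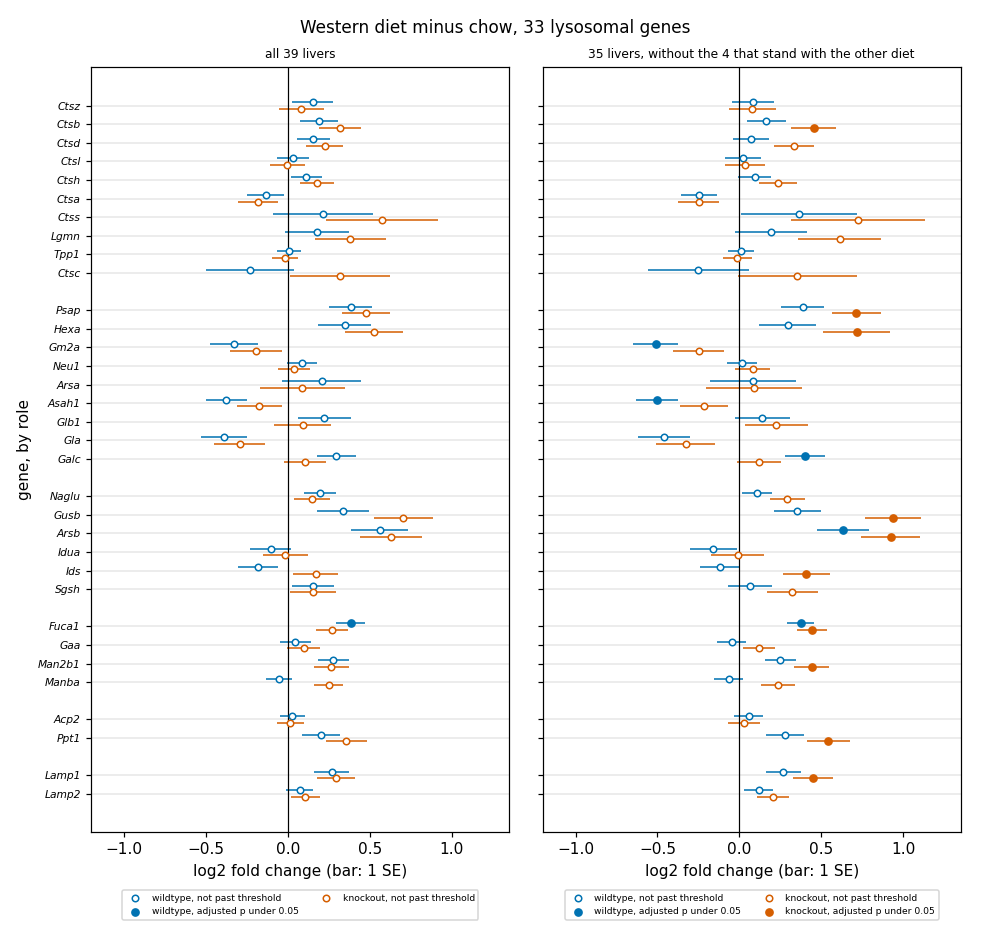
Log2 difference between Western diet and chow for each of the 33 genes in wildtype and in knockout mice, with bars of 1 SE, from all 39 livers on the left and from the 35 livers without the 4 that stood with the other diet on the right. Filled points passed an adjusted p of 0.05: 1 wildtype point on the left, and 5 wildtype and 10 knockout points on the right.

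Among other genes of the pathway, none passed in any comparison in all 39 livers, of 12 regulators and sorting genes, 16 subunits of the proton pump that acidifies lysosomes, 22 tested other lysosomal genes and 2 tested cathepsin inhibitors. Without the 4 livers, the diet comparison in knockout mice called 6 of 23 other lysosomal genes higher, and 23 of 23 were positive with a median of 0.34, where 9.69% of all tested genes were called higher, 7.5% lower, and 51.7% were positive. Among them were Lipa (0.76), the acid lipase, Pla2g15 (0.60), Ctso (0.59), Npc1 (0.58), which exports cholesterol from lysosomes, and Laptm4a (0.25). In the same comparison Scarb2 (0.58), the carrier of glucocerebrosidase, Gnptab (0.52), which makes the mannose 6-phosphate tag, and Igf2r (0.52), a receptor for it, were higher, while the calcium channel gene Mcoln1 (-0.27) was lower. Of the proton pump genes, Atp6v1a (0.45), Atp6v1b2 (0.39) and Atp6v1c1 (0.26) were higher and Atp6v0a1 (-0.32) and Atp6v1g1 (-0.35) lower. In wildtype mice without the 4 livers, Ctse (3.01) and Ctso (0.40) were higher, and Atp6v0a1 (-0.46) and Atp6v1g1 (-0.34) lower. The diets differed little in the cathepsin inhibitors, with Cstb at 0.09 and Cst3 at 0.04 in wildtype mice of all 39 livers, neither called, and Cst3 at 0.00 without the 4.

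The genotype comparisons called none of these other pathway genes with or without the 4 livers. The smallest p-values in all 39 livers on the Western diet were those of Ctse (0.69) and Plbd2 (-0.13) among other lysosomal genes, Nagpa (-0.13) and Mitf (0.18) among regulators and sorting genes, and Atp6v0e (-0.09) and Atp6v1a (0.14) among proton pump genes. On chow they were those of Ctse (1.97) and Laptm4a (-0.18), Mcoln1 (0.28) and Tfeb (0.27), and Atp6v0d1 (-0.17) and Atp6ap1 (-0.14). Without the 4 livers the chow values were 2.87 for Ctse, -0.21 for Laptm4a, 0.26 for Mcoln1, 0.13 for Tfeb, -0.26 for Atp6v0d1 and -0.20 for Atp6ap1, and those on the Western diet 0.73 for Ctse, -0.15 for Plbd2, -0.14 for Nagpa, 0.22 for Mitf, -0.08 for Atp6v0e and 0.15 for Atp6v1a. Tfeb, the gene of the regulator named above, was therefore not called in any comparison.

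Between the genotypes on the Western diet none of the 33 genes passed, where 0.00654% of all tested genes, which is Cd163 alone, passed. The differences lay between -0.21 and 0.23 with a median of -0.03, 14 positive and 19 negative with and without the 4 livers, and 3 had an unadjusted p under 0.05, against 5.08% of all tested genes. No member passed without the 4 livers, where 0.00647% of all tested genes did, and none by limma voom or DESeq2 in all livers. The ranges overlapped between the genotypes for all 33 genes, with and without the 4 livers, where 0.00654% of all tested genes had separate ranges.

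Cathepsin L, the endopeptidase encoded by Ctsl, had the smallest p. It ranged from 437 to 757 CPM with a median of 587 in wildtype and from 425.5 to 618 CPM with a median of 500 in knockout livers on the Western diet. The knockout livers lay mostly in the lower part of the wildtype range. The log2 difference was -0.21 (SE 0.07, adjusted p = 0.943), and -0.22 (adjusted p = 0.744) without the 4 livers. Exons of other annotated genes share 26.8% of the exonic bases of Ctsl, so its reads are partly uncertain.

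Galc ranged from 5.34 to 10.6 CPM with a median of 8.45 in wildtype and from 5.87 to 8.76 CPM with a median of 7.16 in knockout livers, a difference of -0.19 (SE 0.08, adjusted p = 0.943), and of -0.23 (adjusted p = 0.745) without the 4 livers. Naglu ranged from 27.9 to 41.6 CPM with a median of 38.6 and from 26.02 to 40.3 CPM with a median of 33.9, a difference of -0.16 (SE 0.07, adjusted p = 0.943), and of -0.17 (adjusted p = 0.775) without them. In both, the knockout range lay largely inside the wildtype range. Ids differed by 0.15 (SE 0.09), Lamp1 by -0.04 (SE 0.07), Lamp2 by -0.04 (SE 0.06), Ctsd by 0.00 (SE 0.07) and Ctss by 0.12 (SE 0.21), none past the threshold. Acute phase genes were lower in the knockout group for 9 of 9, with a median of -1.53, none called. Sinusoidal endothelial markers were lower for 7 of 7 (-0.22), and macrophage markers higher for 11 of 12 (0.15) as were red blood cell genes for 5 of 6 (0.85), none called. The part of these was not tested.

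On chow none of the 33 genes passed between the genotypes either, where 0.00654% of all tested genes did. Of the 33 differences 27 were negative, with a median of -0.10 against 0.00 over all tested genes. Leaving out knockout chow liver B gave 20 negative and a median of -0.03, and leaving out wildtype chow liver E gave 22 and also -0.03. Leaving out wildtype liver A gave 29 and -0.15, and knockout liver D 30 and -0.16. Without the 4 livers 31 were negative, with a median of -0.23 against -0.02, and still none passed, where 0.00647% of all tested genes did. In all livers no member had ranges that were separate between the genotypes, against 0.66% of all tested genes. Macrophage markers were negative for 10 of 12 in all livers, with a median of -0.11 (-0.24 without the 4), and acute phase genes for 9 of 9, with a median of -1.66 (-0.94 without the 4), where wildtype livers A and E were the high ones. Red blood cell genes were negative for 6 of 6 (-0.88, and -0.69 without the 4). The part of any of these in the lysosomal differences was not tested.

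Manba, the beta-mannosidase, had the smallest p on chow. It stood at 25.4, 20.6, 25.5, 26.7 and 30.0 CPM in wildtype livers A to E and at 22.9, 19.9, 21.5 and 19.2 CPM in knockout livers A to D. Wildtype liver B lay among the knockout values, and the other wildtype livers lay above all 4. The log2 difference was -0.30 (SE 0.10, adjusted p = 1.00), and -0.29 (adjusted p = 0.910) without the 4 livers. It was the only member with an unadjusted p under 0.05 in all livers, against 2.74% of all tested genes. In the 35 livers there were 5 such members, each lower in knockout mice, against 5.36% of all tested genes.

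Gusb, with the chow values given above for knockout mice, stood at 23.0, 26.8, 21.1, 20.5 and 33.4 CPM in wildtype livers A to E. The groups overlapped through knockout liver D. The difference was -0.34 (SE 0.21, adjusted p = 1.00), and -0.55 (adjusted p = 0.910) without the 4 livers, where the ranges of Gusb and of Sgsh, the sulfamidase, did not overlap, against 4.86% of all tested genes. Ctsl differed by -0.17 (SE 0.13) and Ids by -0.20 (SE 0.16), or by -0.23 and -0.39 without the 4 livers.

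**Figure D4:**
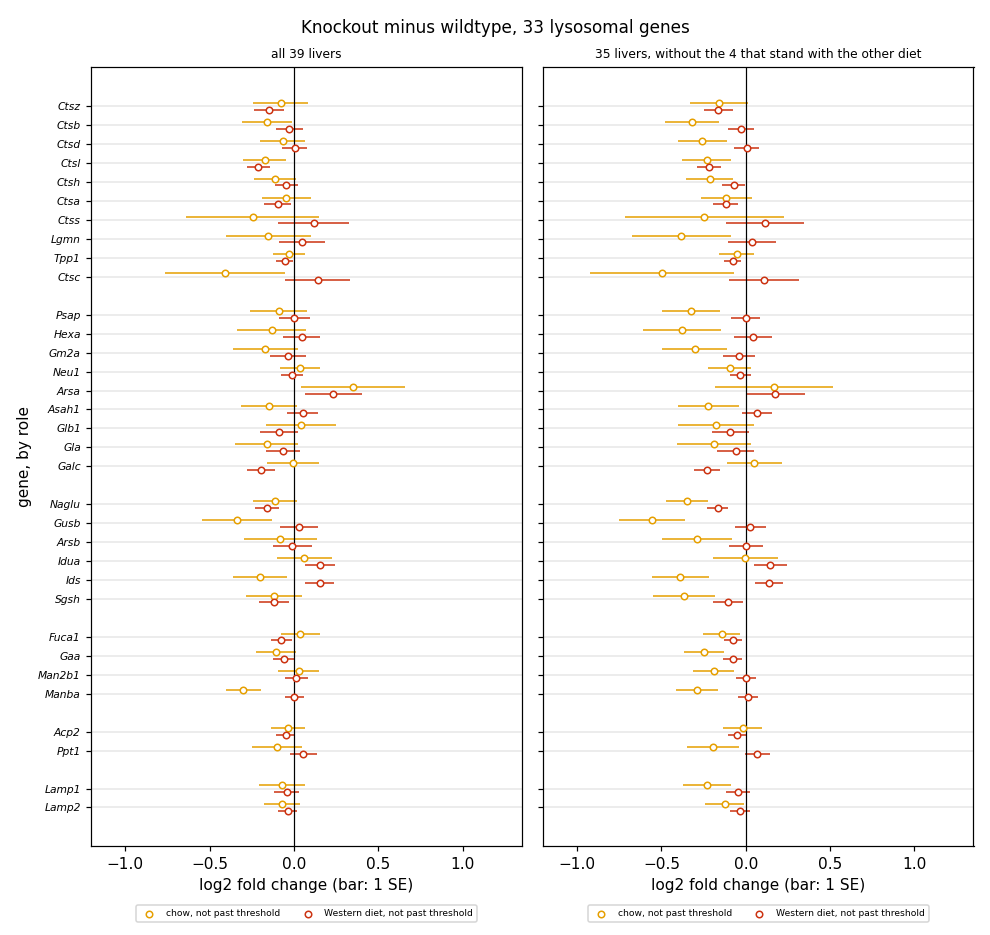
Log2 difference between knockout and wildtype for each of the 33 genes on chow and on the Western diet, with bars of 1 SE, from all 39 livers on the left and from 35 livers on the right. No point passed an adjusted p of 0.05, and most chow points lie to the left of 0, 27 of 33 on the left and 31 of 33 on the right.

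The diet response was not shown to differ between the genotypes for any of the 33 genes, nor for any of the tested genes, with 0% called. Manba had the smallest p, with the Western diet minus chow difference 0.30 higher in knockout than in wildtype mice (SE 0.12, adjusted p = 1.00). It was the only member with an unadjusted p under 0.05, against 1.86% of all tested genes. Its mean level went from 25.7 on chow to 24.7 CPM in wildtype and from 20.9 to 24.8 CPM in knockout mice. Next were Ids at 0.35 (SE 0.18), Gusb at 0.37 (SE 0.23) and Ctsc at 0.55 (SE 0.41), each at adjusted p = 1.00. Mean levels of Ids and Ctsc also fell in wildtype and rose in knockout mice, while that of Gusb rose in both. In all livers 12 of the 33 values were negative, with a median of 0.07. Leaving out knockout chow liver B gave 21 negative and a median of -0.03. Leaving out wildtype chow liver E gave 15 and 0.01. Without the 4 livers 28 were positive and 5 negative, with a median of 0.18 against 0.03 over all tested genes. In those livers 0 passed, with 3 at an unadjusted p under 0.05 (Manba, Ids and Gusb) against 3.25% of all tested genes. With DESeq2 and limma voom in all livers 0 members passed.

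Across the Western diet livers, a few proteases followed the macrophage markers closely. The level of each gene in log2 CPM was compared with the mean log2 CPM of 12 macrophage markers, Adgre1, Csf1r, Clec4f, Vsig4, Timd4, Cd5l, Marco, Fcgr1, C1qa, C1qb, C1qc and Mpeg1, in 15 wildtype and in 15 knockout livers, which makes 66 relations, with permutation p-values adjusted over them. Ctss ranged from 10.1 CPM in wildtype liver J to 54.3 in liver G, and from 14.0 in knockout liver K to 82.7 in liver F. Those are the same livers that had the lowest and the highest marker levels. Spearman's rho was 0.986 in wildtype and 0.925 in knockout livers, and Pearson's r 0.988 and 0.963 (adjusted permutation p = 0.000165 in each case, from the smallest p that 100000 permutations can give). Without the 2 livers farthest from the median marker level, r was 0.976 and 0.951.

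Lgmn behaved alike, ranging from 27.8 to 81.4 CPM in wildtype and from 27.0 to 89.9 CPM in knockout livers. Its rho was 0.946 and 0.936 and its r 0.970 and 0.974 (adjusted permutation p = 0.000165 in each case), and r was 0.911 and 0.968 without the 2 livers. Ctsc had a rho of 0.729 (adjusted permutation p = 0.0408) and an r of 0.887 (0.000924) in wildtype livers, and 0.611 (0.190) and 0.764 (0.0103) in knockout livers, so that in knockout livers it passed by r alone. Its r without the 2 livers was 0.679 and 0.731. With wildtype livers L and M, the closest pair of libraries, summed to 1, its rho in wildtype livers was 0.679 and no longer passed (adjusted permutation p = 0.131), while r did. Without wildtype liver A and knockout liver M, Ctss and Lgmn were again the 2 genes that passed by rho in both genotypes.

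The other members showed weaker relations. Ctsb had a rho of 0.529 and 0.582, neither past the threshold, and in wildtype livers its r went from 0.558 to 0.152 without the 2 livers. Ctsl had a rho of 0.311 and 0.282, and Idua, the iduronidase, 0.439 and 0.118. At the other end, Lamp2 had a rho of -0.329 and -0.375, Arsa, the arylsulfatase A, -0.600 (adjusted permutation p = 0.190) and -0.0607, Arsb -0.254 and -0.168, and Ids -0.204 and -0.0679. No negative relation passed. The marker level and each gene come from the same library, and how much of a gene's RNA macrophages held was not measured. Wildtype liver G, highest in macrophage markers, was also the highest of its group for neutrophil markers (37.7 CPM) and acute phase genes (39064 CPM). Knockout liver F, likewise, was the highest for stellate (560 CPM), lipid-associated macrophage (140 CPM) and lymphocyte markers (6.89 CPM). Its library also had the largest total, 30438808 counts, and the highest normalisation factor, 1.16, of all livers. Neither liver was the highest for the lists named for the other. Relations to markers other than those of macrophages were not tested, so the relations above are not shown to be specific to macrophages.

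**Figure D5:**
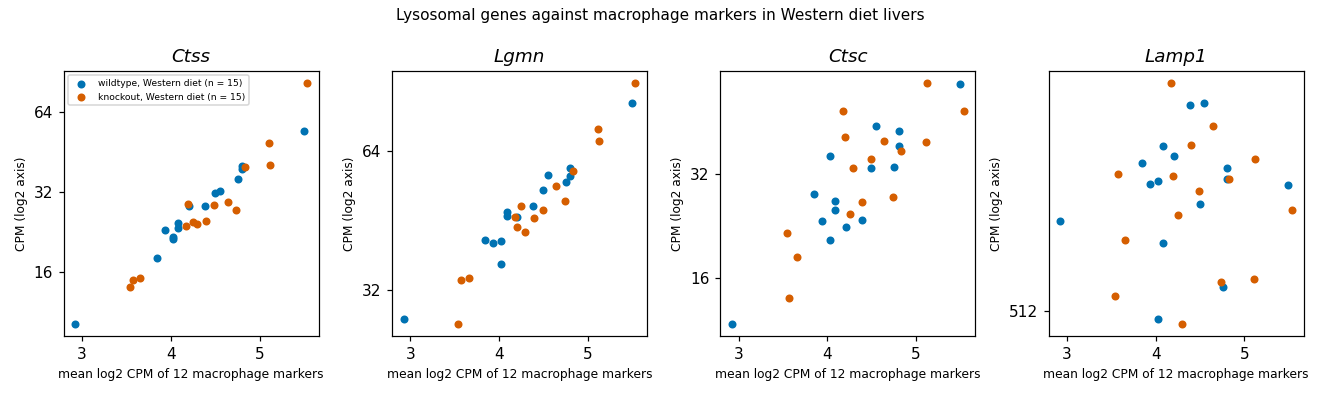
Level of Ctss, Lgmn, Ctsc and Lamp1 in CPM on a log2 axis against the mean log2 CPM of 12 macrophage markers, with 1 point for each of 15 wildtype and 15 knockout livers on the Western diet. Ctss (rho 0.986 and 0.925) and Lgmn (0.946 and 0.936) rise along a narrow band, Ctsc is looser, and Lamp1 shows no such band.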

How the data were processed

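Whole liver RNA of 39 mice was sequenced in pairs after NEBNext Ultra library preparation, per the labels. Per gene, the deposited values are unnormalised counts, which the authors made with STAR 2.7.8a, featureCounts 2.0 and the GRCm39 build, per the submitters' processing notes. The annotation release and strand setting are not given in the sources used here. Of the 33 genes, 15 share exonic bases with another gene in GENCODE vM21, 9 of them over 10%, so their reads are partly uncertain. These 9 are Arsb (39.9%), Ctsd (34.4%), Ctsl (26.8%), Sgsh (21.6%), Arsa (18.8%), Ctsa (17.4%), Ctsb (12.8%), Hexa (12.8%) and Acp2 (12.6%). Genes were filtered by filterByExpr (edgeR 4.0.16, R 4.3.3; minimum count 10, minimum total 15) and libraries scaled by TMM. One quasi-likelihood model with a mean per group was fitted to all 39 libraries, and p-values were adjusted by Benjamini-Hochberg over all 15296 tested genes (15461 without the 4 livers), with a threshold of 0.05. The SE is the one implied by the F statistic. The code was tested on simulated data. Log2 CPM used a prior count of 2, and exonic lengths came from GENCODE vM21. Relations were tested in Python 3.11.15 by 2-sided permutation. Alternatives were DESeq2 1.42.0, limma 3.58.1 with voom, other size factors, no filter, a replicate block and livers left out. Wildtype Western diet livers L and M were the closest pair, differing by a chi-square of 3.98 a gene where the second closest pair had 10.4, and were kept apart. Each member called in a comparison, the 4 with the smallest p, the highest per role and 5 usual lysosome markers are named; members called without the 4 livers were added. The members and lists were chosen with earlier results of these data known. Mice are taken as the replicates, as the labels count mice per group. The values of 1 other lysosomal gene are not reported here.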

Additional observations from a re-analysis of the deposited data

Results flagged for a closer look

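Each gene was examined in the 2 chow groups for a liver far from the others of its group, which made 66 groups and gave 4 such values, where chance alone gives about 1 in 20 groups. Ctsc, encoding cathepsin C, stood at 64.3 CPM in wildtype chow liver E against 23.3 to 33.3 CPM in the other 4. In that liver the summed level of 6 neutrophil markers was 20.8 CPM, the highest of its group, whose median was 5.11 CPM. Liver E was also the highest of its group for macrophage markers (468 CPM, group median 393) and acute phase genes (20001 CPM, group median 4520). The same held for stellate cell markers (308 CPM) and lipid-associated macrophage markers (106 CPM). The part of these was not tested. Ctsd, encoding cathepsin D, stood at 156 CPM in wildtype chow liver A against 218 to 234 CPM in the others. Ppt1 stood at 27.0 CPM in knockout chow liver D against 18.8 to 20.2 CPM in the others. Livers A and D are among the 4 that stood with the other diet. Tpp1 stood at 101 CPM in knockout chow liver C against 90.2 to 91.3 CPM in the others.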

How the results depend on the processing

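The count of members called between the diets depended on the processing. In wildtype mice, where 1 passed, 0 passed with no filter and 0 with a replicate block, 2 with only the groups compared, 2 with DESeq2, 5 with limma voom and 5 without the 4 livers; leaving out 1 chow liver at a time gave 0 to 3. The counts over all genes moved too, from 212 to 44, 50, 288, 512, 1045 and 1339 in that order. Without wildtype chow liver B the all-gene count was 0, and without wildtype chow liver A, where 3 members passed, it was 556. In knockout mice, where 0 passed, 3 passed with DESeq2, 5 with limma voom and 10 without the 4 livers, and leaving out 1 chow liver gave 0 to 8. All-gene counts there went from 1 to 206, 820 and 2657, and to 1408 without knockout chow liver D, where 8 members passed. The cause was not tested. No pairing of mice by replicate letter was seen. The mean correlation of livers of the same letter was -0.0656 on chow (4 pairs, -0.336 to 0.146) and -0.0104 on the Western diet (15 pairs, -0.325 to 0.376). These values cannot exclude a pairing, as the pairs were few and varied. Under the block the adjusted p of Fuca1 was 0.0617. Of the values of single named genes under the alternatives run, 272 kept their status as called or not called, 22 gained a call, 6 lost it and 0 reversed. Among the named genes only Fuca1 in wildtype mice was called in the main fit. Most of the 272 were therefore called in neither fit, and the 6 losses were all of the Fuca1 call. The count of members related to macrophage markers in both genotypes was 2 under each alternative run, and in wildtype livers it went from 3 to 2 with livers L and M summed. No count over all genes was made for this relation. With 4 and 5 chow livers, of which 1 each stood with the other diet, chow limits the precision of each comparison but that on the Western diet.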
